A study of Homo sapiens with 6 samples.

Results

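The collagen chain genes and the laminin chain genes were described in DU145 cells, an established human prostate cancer cell line, with and without overexpression of the circular RNA circCSPP1. The members were rows of the expression table whose symbol has the form of a collagen alpha chain or of a laminin alpha, beta or gamma chain. Of 19727 genes in the table, 55 were members: 44 collagen chain genes and 11 laminin chain genes. A mean of at least 1 FPKM (the fragments of a gene scaled for its length and for library depth) over the 6 libraries was reached by 25 of the 55, namely 17 collagen and 8 laminin genes. The other 30 were under 1 FPKM, and 4 of these (COL11A1, COL2A1, COL19A1 and LAMB4) were listed at 0 in every library.

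The libraries formed 2 groups of 3, DU145 carrying the control lentivirus-NC (NC) and DU145 carrying lentivirus-circCSPP1 (OE). Both were stable lines made by lentiviral transfection and puromycin selection, so the controls also carried a vector and had been selected. The labels give the genotype of the NC libraries as normal, and no source says whether the replicates of a group came from separate cultures. The p-values below therefore measure the spread between these libraries, which may be technical.

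Collagens are secreted or membrane proteins whose chains wind around each other as triple helices. Fibrillar collagens build the fibrils of connective tissue, type IV collagens form the network of the basement membrane, and transmembrane collagens sit in the plasma membrane with a collagenous part outside the cell. Laminins are cross-shaped trimers of an alpha, a beta and a gamma chain that lie beneath epithelia. LAMA3 and LAMB3 encode chains of a laminin that anchors the hemidesmosomes of basal epithelial cells, and in the normal prostate it lies in the basement membrane under the glands.

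The depth, read from the steps between low FPKM values, was 29000000 to 36600000 fragments per library, and CSPP1, the parent gene of circCSPP1, was at 9.11 to 10.1 FPKM in NC and 14.5 to 22.8 FPKM in OE. Poly(A) selection removes circular RNA without a poly(A) tail, so the CSPP1 level is only an indirect check of the labels. By qRT-PCR the paper reports that its lentiviruses changed circCSPP1 and not CSPP1 mRNA, whereas CSPP1 FPKM was higher in OE here. The source of that difference was not tested. OE replicate 1 stood apart from the other OE libraries by GC content: over 12305 tested genes with an annotated transcript, its difference from the mean of OE replicates 2 and 3 rose with the GC content of the gene (Spearman rho across genes 0.78, a description). The members are GC-rich, with a median of 58.96% against 49.3% for all tested genes, and 19 of the 25 (76.0%) were highest in OE replicate 1 among the OE libraries, against 40.5% of all tested genes. Values without OE replicate 1 are therefore given beside several of the results below, though not beside all that it touches. Of the 7 tested epithelial and DU145 identity markers, 5 fell in OE at a limma adjusted p under 0.05 (CDH1, KRT8, KRT18, EPCAM and KRT19). KRT7 rose, and VIM did not pass (log2 fold change -0.04, limma adjusted p = 0.7725). Over all tested genes 6.66% fell and 4.69% rose. Of the fibroblast markers, 7 of 8 were under 1 FPKM with LUM and FAP at 0, and the 8 summed to 2.85 to 3.09 FPKM in NC and 2.04 to 4.74 FPKM in OE. All 5 endothelial markers and 4 of 5 leukocyte markers were under 1 FPKM, the exception being CD68. The prostate luminal markers KLK2 and KLK3 were at 0 in every library. The part of the epithelial marker change in the results below was not tested.

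**Figure D1:**
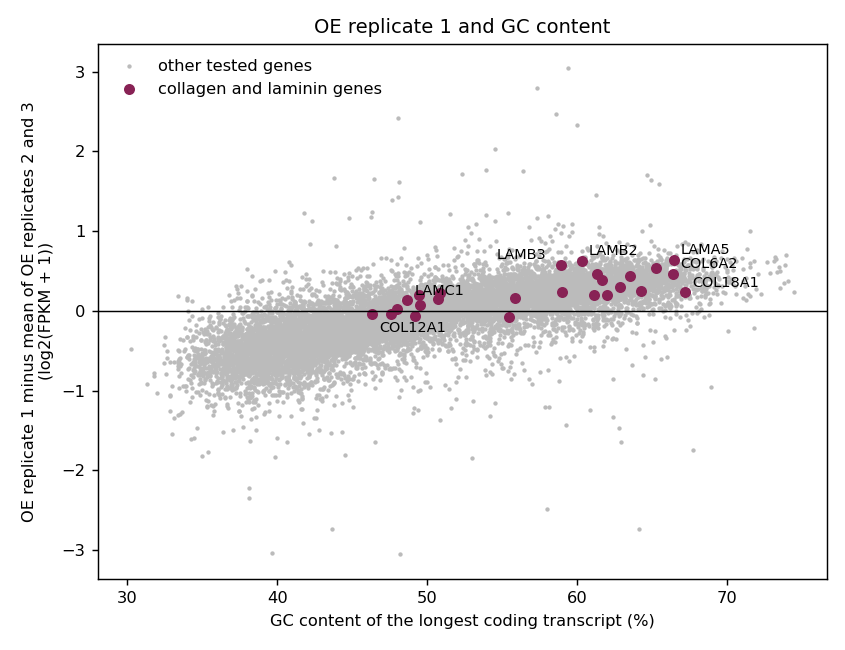
Each point is a tested gene, placed by the GC content of its longest coding transcript (percent, horizontal) and by log2(FPKM + 1) in OE replicate 1 minus the mean of OE replicates 2 and 3 (vertical), with the collagen and laminin genes as large dark points. The cloud climbs from left to right, and most members lie in its GC-rich part above 0.

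The question of the comparison was which genes change when circCSPP1 is overexpressed. Among the 25 tested members, 8 fell and 1 rose at an adjusted p under 0.05 (limma on log2(FPKM + 1), Benjamini-Hochberg adjustment over all 12322 tested genes). Over all tested genes 6.66% fell and 4.69% rose, so that the share of the members that fell, 8 of 25, was well above that of all genes. The 8 that fell were COL13A1, COL1A1, COL27A1, COL6A1, LAMB1, COL18A1, COL5A2 and COL4A2, and the 1 that rose was LAMB3. The median log2 fold change (OE against NC) of the 25 was -0.36 beside -0.03 over all tested genes, with 20 members below 0 and 5 above. The 17 tested collagens had a median of -0.46, and 7 of them fell with none rising (limma, none higher at an unadjusted p under 0.05 either). In 14 of the 25 every OE library lay below every NC library, which held for 20.5% of all tested genes, and in 2 (LAMB3 and COL17A1) every OE library lay above, which held for 16.0%; groups without overlap in either direction made up 36.4% of all tested genes. In bulk RNA, fewer cells of a type and less RNA per cell cannot be told apart. With 1 library left out the count of members that fell changed. It was 1 without NC replicate 1, 2 without NC replicate 2 and 3 without NC replicate 3. It was 14 without OE replicate 1, 8 without OE replicate 2 and 4 without OE replicate 3. COL13A1 was called in all 6 of these fits. The count over all 12322 tested genes changed too, from 821 with every library. It was 154, 164 and 242 without NC replicates 1, 2 and 3, and 1888, 660 and 255 without OE replicates 1, 2 and 3.

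**Figure D2:**
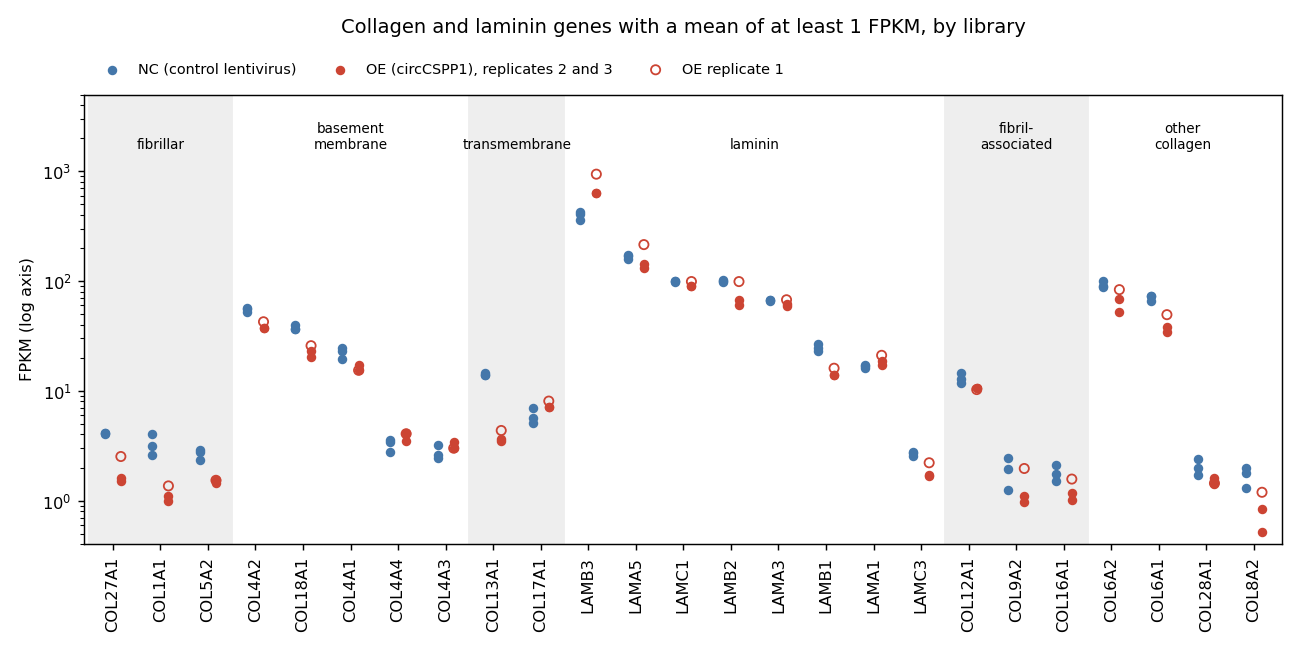
FPKM (log axis) of the tested collagen and laminin genes in each of the 6 libraries, NC and OE in separate colors, OE replicate 1 as open circles, and genes grouped by class. LAMB3 is the highest member in every library and lies higher in OE, while COL13A1, COL1A1 and COL27A1 lie lower.

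**Figure D3:**
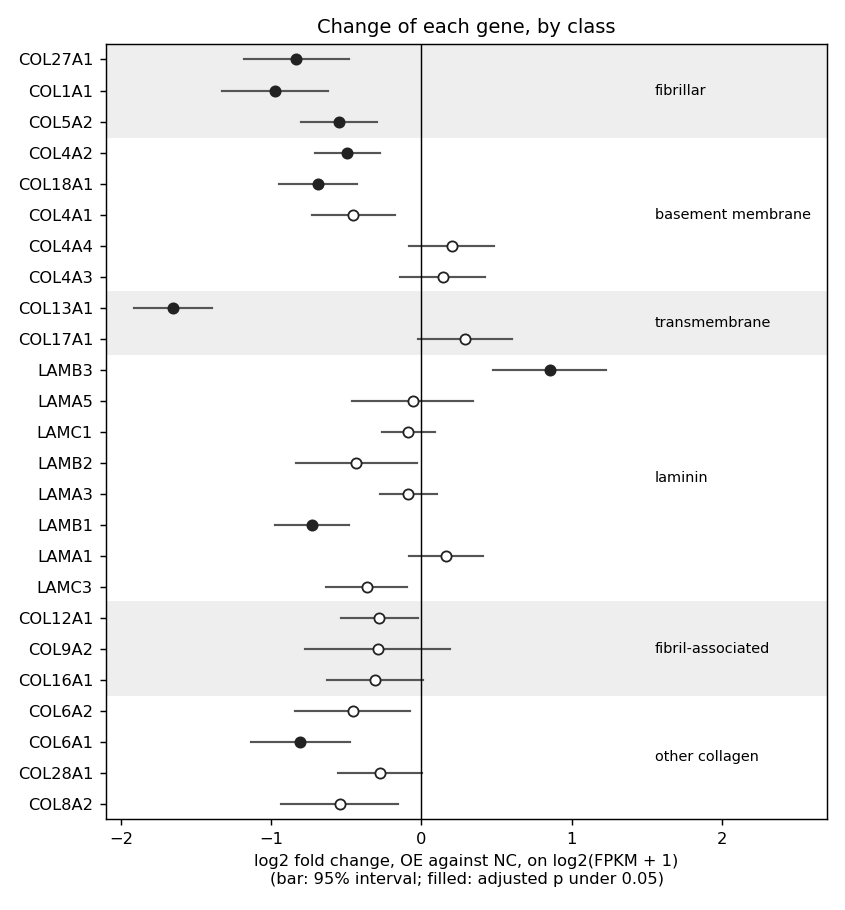
The log2 fold change of OE against NC on the log2(FPKM + 1) scale for each of the 25 tested genes by class, with horizontal bars for the 95% confidence interval of limma and filled points for an adjusted p under 0.05. All 3 tested fibrillar genes lie below 0, and LAMB3 at 0.85 is the only filled point above it.

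The transmembrane class held the largest difference among the tested members on the log2(FPKM + 1) scale. COL13A1 (ENSG00000197467, chr10:69801867-69964275, plus strand, GRCh38), a membrane collagen of cell-matrix adhesions and of the neuromuscular junction, was at 13.8, 14.5 and 13.97 FPKM in the NC libraries and at 4.35, 3.48 and 3.61 FPKM in the OE libraries. The groups did not overlap, and the gap between them was far wider than the range within either. The mean fell from 14.1 ± 0.342 to 3.81 ± 0.469 FPKM (SD, n = 3 each), a log2 fold change of -1.65 (SE 0.11, limma adjusted p = 0.00106). COL13A1 was the only member past an unadjusted p of 0.01 with an absolute log2 fold change of 1.5, which 0.195% of all tested genes passed. Its adjusted p was 0.000481 to 0.0115 with 1 library left out. COL17A1, the hemidesmosomal transmembrane collagen that is anchored to the same structure as LAMB3, was at 5.12, 5.68 and 7.04 FPKM in NC and 8.06, 7.12 and 7.14 FPKM in OE. Its groups were separated only narrowly, between NC replicate 3 and OE replicate 2, and its log2 fold change of 0.29 (SE 0.13) did not pass the test (limma adjusted p = 0.207). COL23A1 and COL25A1, the other transmembrane members, were at no more than 0.20 FPKM in any library.

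All 3 fibrillar collagens that reached 1 FPKM fell, beside 6.66% of all tested genes, but all were low. The class summed to 10.9 ± 0.499 FPKM in NC and 5.59 ± 0.872 FPKM in OE (SD, n = 3 each). COL1A1 (ENSG00000108821, chr17:50183289-50201632, minus strand), which encodes the main chain of the type I collagen of bone and skin, was at 3.11, 4.06 and 2.60 FPKM in NC and 1.36, 1.11 and 0.99 FPKM in OE. Every OE library was below every NC library, and the NC libraries were the more spread. COL1A1 fell with a log2 fold change of -0.97 (SE 0.15, limma adjusted p = 0.0101), and the adjusted p was 0.0505 without NC replicate 1. COL1A2, whose product joins that of COL1A1 in type I collagen, was at no more than 0.04 FPKM in any library, so nearly all of the type I transcript in these cells was that of COL1A1. COL27A1, a fibrillar collagen of cartilage, was at 4.10, 4.09 and 4.01 FPKM in NC and 2.52, 1.5 and 1.62 FPKM in OE. The NC libraries were almost level and OE replicate 1 was the highest OE library. COL27A1 fell with a log2 fold change of -0.83 (SE 0.15, limma adjusted p = 0.0156), with an adjusted p of 0.0624 to 0.0747 without any 1 NC library and 0.0657 without OE replicate 3. COL5A2, a chain of type V collagen, which is found inside type I fibrils, was at 2.86, 2.33 and 2.79 FPKM in NC and 1.53, 1.53 and 1.44 FPKM in OE. The groups did not overlap and the OE libraries were nearly equal. Its log2 fold change was -0.55 (SE 0.11, limma adjusted p = 0.0211), with an adjusted p of 0.0596 to 0.103 without any 1 NC library and 0.0854 without OE replicate 3. COL5A1, COL5A3 and COL3A1 stayed at or under 0.17 FPKM.

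Of the 5 basement membrane collagens that reached 1 FPKM, 2 fell and none rose, beside 6.66% and 4.69% of all tested genes. COL4A2 (ENSG00000134871, chr13:110305812-110513209, plus strand) and COL4A1 (ENSG00000187498, chr13:110148963-110307233, minus strand) encode the chains of the most widespread type IV collagen, in which COL4A1 chains outnumber COL4A2 chains. COL4A2 was at 57.3, 55.8 and 52.2 FPKM in NC and 42.6, 37.2 and 37.1 FPKM in OE. All OE libraries were below all NC libraries, with OE replicate 1 the highest of them. COL4A2 fell with a log2 fold change of -0.49 (SE 0.09, limma adjusted p = 0.0183), with an adjusted p of 0.0629 to 0.0972 without any 1 NC library and 0.0794 without OE replicate 3. COL4A1 was at 22.9, 24.8 and 19.5 FPKM in NC and 15.4, 17.4 and 15.4 FPKM in OE. These groups did not overlap either, and NC replicate 3 lay closest to OE. Its log2 fold change, -0.45 (SE 0.12), was close to that of COL4A2, and its limma adjusted p of 0.0502 missed the threshold narrowly. The adjusted p was 0.0386 without OE replicate 1 and reached 0.197 with 1 other library left out. The level of COL4A1 relative to COL4A2, both per length, was 0.406 ± 0.0355 in NC and 0.414 ± 0.0531 in OE (SD, n = 3 each; two-sided exact permutation p = 0.80, where the smallest possible is 0.10).

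COL4A1 and COL4A2 lie head to head on chromosome 13, and the RefSeq start sites (GRCh38.p14) are 127 nt apart on opposite strands. The pair therefore shares a promoter region, and 2 short windows of it are shown on the COL4A2 strand, in capitals a CCAAT box at chr13:110307167-110307196 and a GC box at chr13:110307207-110307236.
COL4A2 CCAAT window: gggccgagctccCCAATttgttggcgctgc
COL4A2 GC box window: ccggcggtgcgcGGGCGGcgcctcaaaggg
CCAAT, searched on both strands, was in 34.6% of 35116 RefSeq promoter windows of one length around the start site and in 29.1% of 55 member windows, which cover 41 of the 55 members. GGGCGG, also searched on both strands, was in 45.0% of all windows and 58.2% of the member windows. A match of letters is a description and not evidence of binding.

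COL18A1, whose product carries the endostatin fragment at its end, was at 36.2, 40.2 and 36.8 FPKM in NC and 25.8, 23.3 and 20.4 FPKM in OE. The groups were well separated. COL18A1 fell with a log2 fold change of -0.69 (SE 0.11, limma adjusted p = 0.0110), with an adjusted p of 0.0512 to 0.0672 without any 1 NC library. COL4A3 and COL4A4, chains of the type IV network of the kidney glomerulus, were much lower, at 2.46 to 3.42 and 2.79 to 4.09 FPKM over the 6 libraries, and had log2 fold changes of 0.14 and 0.20 (limma adjusted p = 0.497 and 0.322). They stood on the other side of 0 from COL4A1 and COL4A2, and neither passed the test.

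Among the 8 tested laminin chains 1 rose, 1 fell and 6 did not pass, beside 4.69% of all tested genes that rose and 6.66% that fell. LAMB3 (ENSG00000196878, chr1:209614870-209652466, minus strand), the beta chain of the hemidesmosomal laminin, was the highest member in all libraries, at 424, 411 and 361 FPKM in NC and 941, 631 and 629 FPKM in OE. Every OE library was above every NC library, and OE replicate 1 was far above the other two. The mean rose from 399 ± 33.3 to 733 ± 180 FPKM (SD, n = 3 each), a log2 fold change of 0.85 (SE 0.16, limma adjusted p = 0.0183). Without OE replicate 1 it was 0.66 (limma adjusted p = 0.00302), and without any 1 NC library the adjusted p was 0.0665 to 0.0789. LAMB3 held 31.2% to 34.2% of the summed FPKM of the 55 members in NC and 50.6% to 54.7% in OE.

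LAMA3, the alpha chain that joins LAMB3, was at 67.6, 66.7 and 66.1 FPKM in NC and 67.5, 59.6 and 61.6 FPKM in OE. OE replicate 1 lay within the range of NC, and the log2 fold change of -0.09 (95% confidence interval -0.28 to 0.10, limma adjusted p = 0.534) did not pass the test. The level of LAMB3 relative to LAMA3, per length, was 6.28, 6.17 and 5.47 in NC and 13.9, 10.6 and 10.2 in OE. That ratio differed by 0.94 on the log2 scale with no overlap between the groups, and the two-sided exact permutation p of 0.10 is the smallest 3 against 3 libraries allow.

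**Figure D4:**
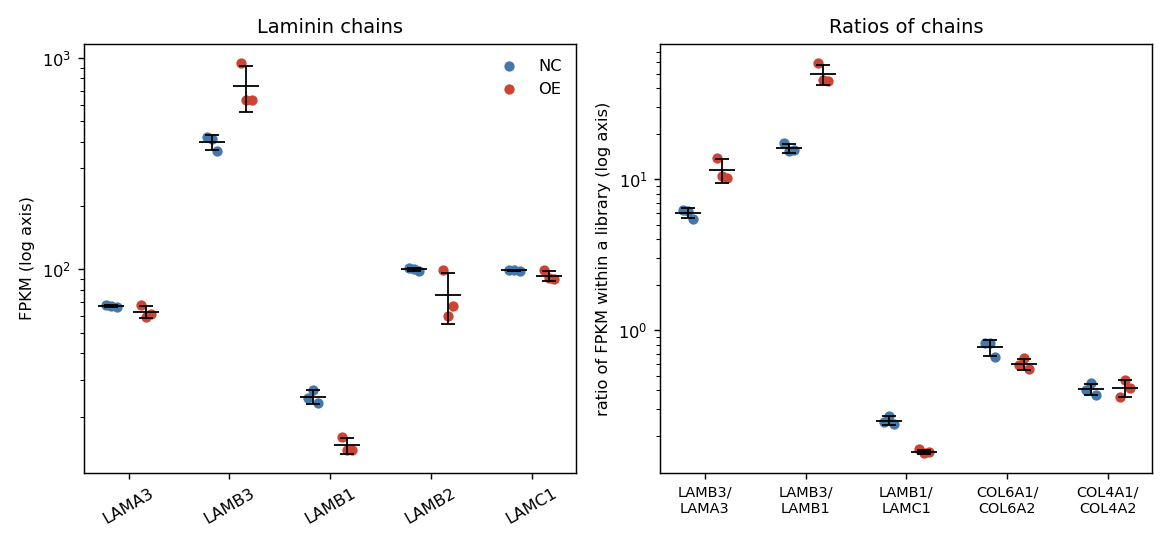
FPKM of 5 laminin chains (left, log axis) and ratios of FPKM between chains within a library (right, log axis), with a point for each NC and OE library and black bars for the mean and SD of 3. LAMB3 to LAMA3 and LAMB3 to LAMB1 lie higher in every OE library, LAMB1 to LAMC1 and COL6A1 to COL6A2 lie lower, and COL4A1 to COL4A2 overlaps between the groups.

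Of the other beta chains, LAMB1 fell and LAMB2 did not pass the test. LAMB1, a beta chain of several laminins that include those of early embryonic basement membranes, was at 24.5, 26.8 and 23.3 FPKM in NC. In OE it was at 16.1, 13.9 and 13.96 FPKM. The groups were far apart, and LAMB1 had a log2 fold change of -0.73 (SE 0.11, limma adjusted p = 0.00819), which had an adjusted p of 0.0510 without NC replicate 1 and 0.0550 without NC replicate 2. The level of LAMB3 relative to LAMB1 was 16.1 ± 1.09 in NC and 49.7 ± 7.71 in OE (SD, n = 3 each). LAMB2, the beta chain found at the neuromuscular junction and in the glomerulus, was at 101, 100.1 and 98.3 FPKM in NC and 98.9, 60.3 and 67.0 FPKM in OE. OE replicate 1 lay inside the NC range and the other OE libraries well below it. The log2 fold change was -0.43 (SE 0.17, limma adjusted p = 0.149), and without OE replicate 1 it was -0.64 (limma adjusted p = 0.00222). With 1 other library left out the limma adjusted p of LAMB2 reached 0.337.

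Of the widely shared chains, LAMC1, the gamma chain of most laminins, was at 98.0 to 99.2 FPKM in NC and 89.6 to 98.9 FPKM in OE, with a log2 fold change of -0.09 (limma adjusted p = 0.505). Relative to LAMC1, LAMB1 was at 0.252 ± 0.0167 in NC and 0.157 ± 0.00481 in OE (SD, n = 3 each), with no overlap between the groups and an exact permutation p of 0.10. LAMA5, the main alpha chain of adult epithelial basement membranes, was at 168, 172 and 158 FPKM in NC and 215, 133 and 142 FPKM in OE. OE replicate 1 was the highest library of all and the other OE libraries were the lowest. Its log2 fold change was -0.06 (limma adjusted p = 0.863), and without OE replicate 1 it was -0.27 (limma adjusted p = 0.0201). It took the other sign, 0.072 and 0.023, without OE replicates 2 and 3. LAMA1, an alpha chain of embryonic laminins, was at 16.3 to 17.3 FPKM in NC and 17.2 to 21.1 FPKM in OE (log2 fold change 0.16, limma adjusted p = 0.356). LAMC3 was at 2.55 to 2.77 FPKM in NC and 1.67 to 2.21 FPKM in OE (-0.36, limma adjusted p = 0.0870, and 0.0175 without OE replicate 1). With 1 other library left out the limma adjusted p of LAMC3 reached 0.249.

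Of the other collagens, COL6A1, COL6A2, COL8A2 and COL28A1 reached 1 FPKM, and COL6A1 fell. COL6A1 and COL6A2 are neighbors on chromosome 21 and encode chains of type VI collagen, a beaded microfilament that usually also needs a chain such as that of COL6A3. COL6A1 was at 73.1, 73.6 and 66.0 FPKM in NC and 49.4, 34.03 and 38.3 FPKM in OE. The groups did not overlap, and OE replicate 1 lay nearest to NC. COL6A1 fell with a log2 fold change of -0.81 (SE 0.14, limma adjusted p = 0.0140), with an adjusted p of 0.0509 to 0.0747 without any 1 NC library and 0.0616 without OE replicate 3. COL6A2, the highest of all the collagens, was at 88.4, 89.8 and 99.6 FPKM in NC and 83.5, 52.2 and 69.2 FPKM in OE. The OE libraries were all lower but widely spread. The log2 fold change was -0.46 (SE 0.16, limma adjusted p = 0.116), and without OE replicate 1 it was -0.61 (limma adjusted p = 0.0171). With 1 other library left out the limma adjusted p of COL6A2 reached 0.296. COL6A1 relative to COL6A2 was 0.770 ± 0.0924 in NC and 0.599 ± 0.0503 in OE (SD, n = 3 each), without overlap (exact permutation p = 0.10). COL6A3, COL6A5 and COL6A6 were at no more than 0.03 FPKM in any library. COL8A2, a collagen of the corneal endothelial membrane, was at 1.77, 1.97 and 1.30 FPKM in NC and 1.19, 0.52 and 0.83 FPKM in OE. Its libraries varied widely within each group, without overlap between the groups. The log2 fold change of COL8A2, -0.55 (SE 0.17), did not pass the test (limma adjusted p = 0.0779), but did without OE replicate 1 (limma adjusted p = 0.0237). With 1 other library left out its limma adjusted p reached 0.242.

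None of the 3 fibril-associated collagens that reached 1 FPKM passed the limma test, and 1 (COL12A1) was lower at an unadjusted p under 0.05. COL12A1, which decorates the surface of type I fibrils, was the highest of the class, at 11.7, 14.4 and 12.9 FPKM in NC and 10.3, 10.7 and 10.5 FPKM in OE. The OE libraries were tight and all below NC, and the log2 fold change was -0.28 (SE 0.11, limma adjusted p = 0.145). COL16A1 and COL9A2 had log2 fold changes of -0.31 and -0.29 (limma adjusted p = 0.193 and 0.398).

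Of the 30 members under 1 FPKM, the 4 listed at 0 in every library were not tested, and the others were tested only in a fit without the filter on low values, in which 8.20% of 17116 genes were called, 5.13% lower and 3.07% higher. Of them COL21A1, a fibril-associated collagen, fell, and COL24A1, a fibrillar collagen, rose. COL21A1 was at 0.55, 0.62 and 0.56 FPKM in NC and 0.05, 0.14 and 0.11 FPKM in OE, or about 70, 78 and 89 fragments against 7, 21 and 14. Its groups were far apart, with a log2 fold change on the log2(FPKM + 1) scale of -0.52 (limma adjusted p = 0.00519). COL24A1 was at 0.12, 0.16 and 0.08 FPKM in NC and 0.58, 0.68 and 0.41 FPKM in OE, or about 24, 32 and 20 fragments against 127, 161 and 81. Its groups did not overlap either, with a log2 fold change of 0.47 (limma adjusted p = 0.0158). Both folds are understated by the added 1 FPKM. COL7A1, the anchoring fibril collagen, lay just under the filter with a mean of 0.935 FPKM, at 1.21, 1.17 and 0.96 FPKM in NC and 0.71, 0.89 and 0.67 FPKM in OE. Among the members under 1 FPKM and above 0, 3 had every OE library above every NC library (COL4A5, COL15A1 and COL24A1). Another 3 had every OE library below (COL21A1, COL11A2 and COL7A1). Of the 4794 genes with a mean above 0 and under 1 FPKM, 3.15% and 12.9% did so. COL15A1 rested on only about 2 to 11 fragments per library.

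The study examined circCSPP1 together with miR-520h, a microRNA that the paper reports as reduced by circCSPP1 overexpression. The 3′ UTRs of the members were searched for the seed match of miR-520h. The miR-29 family, whose members are known to act on many collagen transcripts, was searched the same way as a reference. The mature sequences (RefSeq, GRCh38.p14) are shown because the seed, bases 2 to 8 in capitals, sets the letters searched.
hsa-miR-520h: aCAAAGUGcuucccuuuagagu
hsa-miR-29a-3p: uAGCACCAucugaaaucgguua
hsa-miR-29b-3p: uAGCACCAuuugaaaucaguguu
hsa-miR-29c-3p: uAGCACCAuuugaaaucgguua
The 3 miR-29 sequences share their seed. A match was CACTTTG or ACTTTGA for miR-520h and TGGTGCT or GGTGCTA for miR-29, on the transcript strand, in the 3′ UTR of the transcript with the longest coding sequence in GENCODE release 29.

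A miR-520h match was found in 11 of the 55 members, beside 24.9% of 19058 genes with a 3′ UTR. Among the tested members it was found in 7 of 25, beside 28.1% of all tested genes, and in 2 of the 8 that fell (COL5A2 and COL27A1). The share among all members was thus no higher than among all genes. A miR-29 match was found in 32 of the 55 members (58.2%), beside 14.3% of genes with a 3′ UTR, and in 12 of the 25 tested members, beside 16.4%. Of the 8 members that fell, 5 (COL1A1, COL27A1, COL6A1, COL5A2 and COL4A2) had a miR-29 match. Neither COL13A1 nor LAMB3, the tested members with the largest difference in each direction on the log2(FPKM + 1) scale, had a match to either seed.

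Matches in members that fell, and in COL4A1 as the partner of COL4A2, are shown with their surroundings on the transcript strand (GENCODE release 29, GRCh38), in capitals the match. COL27A1 has the most miR-520h matches of the members, 3, of which the one that pairs with the whole seed lies at chr9:114312218-114312246 (plus strand). The miR-29 matches shown lie at chr17:50184562-50184590 in COL1A1 (minus strand), chr2:189032863-189032891 in COL5A2 (minus strand), chr13:110512208-110512236 in COL4A2 (plus strand) and chr13:110150316-110150344 in COL4A1 (minus strand), and all but that of COL4A2 have an adenine after the seed match.
COL27A1 miR-520h match: atttaatacctCACTTTGgcccgtccccc
COL1A1 miR-29 match: gagggaatcacTGGTGCTAtagaaattga
COL5A2 miR-29 match: tcctttaatgaTGGTGCTAaaattcttcc
COL4A2 miR-29 match: aagggccatttTGGTGCTtattcttaact
COL4A1 miR-29 match: atgtcacaacaTGGTGCTActtcttcttc
The levels of the microRNAs were not measured in these libraries, and whether any match is used in these cells was not tested.

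The genes that work with collagens and laminins were described by lists. Of 32 tested genes of collagen modification and assembly, 6 fell and none rose by limma (14 lower and 1 higher at an unadjusted p under 0.05), beside 6.66% of all tested genes that fell and 16.0% lower and 12.2% higher at an unadjusted p under 0.05, with a median log2 fold change of -0.25. They were BMP1, the protease that trims the ends of fibrillar procollagens (-1.02), SEC24D, a coat protein of the vesicles that carry procollagen (-0.73), the crosslinking oxidases LOX (-0.68) and LOXL2 (-0.38), PCOLCE, which enhances BMP1 (-0.44), and COLGALT1, which attaches galactose to collagen (-0.43), with limma adjusted p-values of 0.00476 to 0.0493. BMP1 was at 66.8 to 69.4 FPKM in NC and 29.3 to 39.9 FPKM in OE, with the groups far apart. No prolyl or lysyl hydroxylase gene of the list was among the 6, though several were lower before adjustment. P4HA3, PLOD2, P4HB, P3H3, P3H2 and PLOD1 had log2 fold changes of -0.54 to -0.38. Each was under an unadjusted limma p of 0.05, with adjusted p-values of 0.0587 to 0.1445. P4HA1, P4HA2, P3H1 and PLOD3 were not under 0.05 before adjustment. The number of the list called was 1 without NC replicate 1 and without NC replicate 2, and 4 without NC replicate 3. It was 16 without OE replicate 1 and 2 without OE replicate 3. Of all 12322 tested genes, 300, 317 and 407 were called without NC replicates 1, 2 and 3. Without OE replicates 1 and 3, 3512 and 450 of them were.

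Of 16 tested partners of the basement membrane, 10 fell and none rose by limma (12 lower and 0 higher at an unadjusted p under 0.05), beside 6.66% of all tested genes that fell, and the median log2 fold change was -0.52. The 6 with the largest differences were NID2 (-1.24) and NID1 (-0.59), the nidogens that link laminin to type IV collagen, HSPG2, which encodes perlecan (-0.95), VWA1, a perlecan binding protein (-0.73), MATN2, a matrix adaptor (-0.70), and FN1, fibronectin (-0.65), with limma adjusted p-values of 0.00638 to 0.02997. HSPG2 was at 173 to 186 FPKM in NC and 75.7 to 124 FPKM in OE, with OE replicate 1 the highest OE library. NID2 was at 2.45 to 4.12 FPKM in NC and 0.69 to 1.04 FPKM in OE. The number of partners called was 1 without NC replicate 1 and without NC replicate 3. It was 2 without NC replicate 2 and without OE replicate 3, and 13 without OE replicate 1. Of all 12322 tested genes, 300, 317 and 407 were called without NC replicates 1, 2 and 3. Without OE replicates 1 and 3, 3512 and 450 of them were.

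Of 17 tested receptors of collagens and laminins, 1 rose and 2 fell, beside 11.4% of all tested genes called in either direction, and the median log2 fold change was -0.04. ITGB4, the integrin beta chain of the hemidesmosome, whose ligand is the laminin that holds LAMB3, fell from 44.8 ± 3.24 to 23.6 ± 7.33 FPKM (SD, n = 3 each; -0.93, limma adjusted p = 0.0243). ITGA2, the alpha chain of a collagen-binding integrin, fell from 14.1 ± 0.561 to 7.503 ± 1.32 FPKM (-0.84, limma adjusted p = 0.0115), and SDC4, a syndecan, rose from 156 ± 8.76 to 195 ± 6.06 FPKM (0.32, limma adjusted p = 0.0360). By limma no receptor was called without any 1 NC library, 2 were without OE replicate 2 and without OE replicate 3, and 5 without OE replicate 1. Of all 12322 tested genes, 300, 317 and 407 were called without NC replicates 1, 2 and 3. Without OE replicates 1, 2 and 3, 3512, 1160 and 450 of them were.

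The classes differed in how much RNA they held. The 44 collagens together summed to 339 ± 8.61 FPKM in NC and 228 ± 29.2 FPKM in OE, and the 11 laminins to 875 ± 43.6 and 1164 ± 257 FPKM (SD, n = 3 each). Without OE replicate 1 the OE mean of the collagen sum was 212 FPKM. That of the laminin sum was then 1015 FPKM, and its difference from NC was 140 in place of 289 FPKM. The difference in the mean of LAMB3 (399 against 733 FPKM) was larger than that in the laminin sum, and 6 of the 8 tested laminins had a log2 fold change below 0. The basement membrane collagens summed to 121.5 ± 6.96 FPKM in NC and 85.6 ± 5.42 FPKM in OE.

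**Figure D5:**
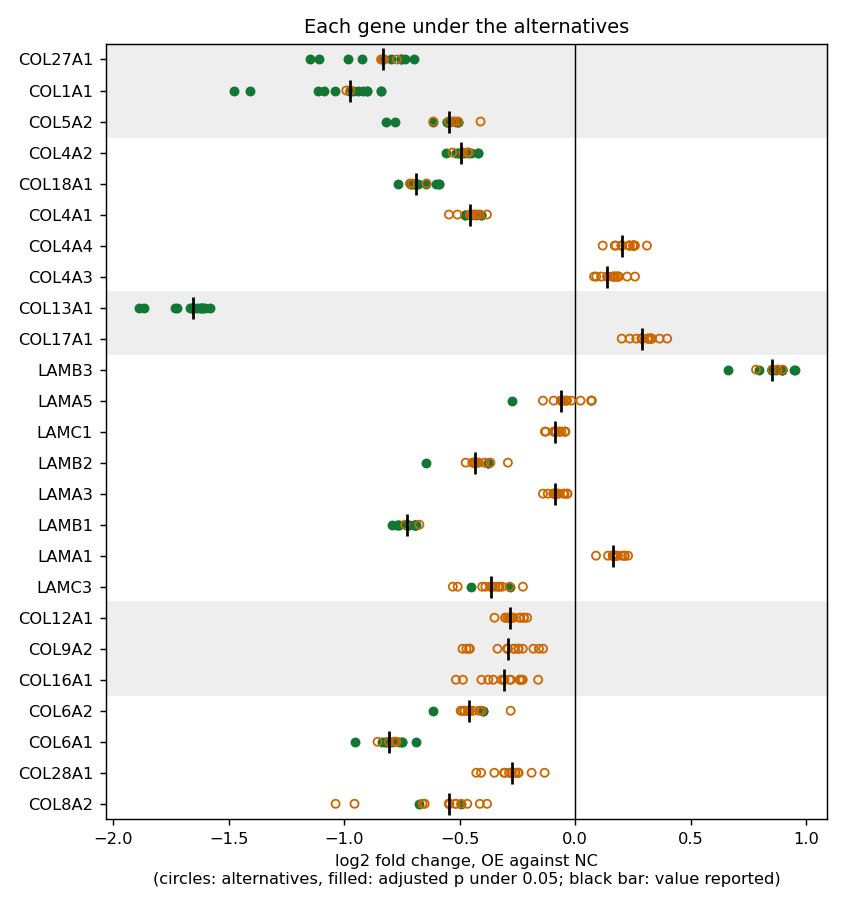
The log2 fold change of each tested member (horizontal) under each processing alternative as a circle, filled where the adjusted p was under 0.05, with a vertical bar at the value reported. COL13A1 stays at or below -1.58 and is filled throughout, while LAMA5 lies on both sides of 0.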

How the data were processed

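Polyadenylated RNA of 6 DU145 libraries was sequenced in paired-end mode by the authors, who deposited FPKM values, 1 column per library, rounded to 2 decimals (hg38, per the submitters' processing notes). The aligner, quantifier and annotation are not given in the sources used here. No counts were used, so depth was estimated from FPKM steps in transcripts under 800 nt (91.7% to 98.4% of values within 0.15 of a step). Groups came from the titles. The 12322 genes that averaged 1 FPKM or more were tested as log2(FPKM + 1) with limma 3.58.1 in R 4.3.3 (lmFit, eBayes with trend, two-sided, no covariate) and Benjamini-Hochberg adjustment over all of them. The fit was also run on simulated data, with planted changes larger than that of any member and without the GC pattern of OE replicate 1. That run therefore does not cover changes of the size reported here. Fold changes on this scale understate the change of low genes. Length and GC content (longest coding transcript), positions and 3′ UTRs (transcript with the longest coding sequence) came from GENCODE release 29 (GRCh38), and microRNAs and promoters from RefSeq (GRCh38.p14). All members were classed by type; 1 gene that has such a symbol is not reported here and was left out of every count of members, though not of the fit. Library values were given for tested members with an adjusted p under 0.05 or a log2 fold change of 0.5 or more in either direction, for LAMA3, LAMB3, COL4A1, COL4A2, COL17A1 and the highest member of each class, and up to 6 called genes were named per list. Other named members were chosen after their values were seen. The members, classes and lists were chosen with earlier results of these data known. Alternatives were other pseudocounts, filters, scalings and variance settings, a replicate block, a GC and length correction and leaving out each library.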

Additional observations from a re-analysis of the deposited data

How the results depend on the processing

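COL13A1 fell under all 18 alternatives, with log2 fold changes of -1.89 to -1.58. Of the members, 8 fell, beside 5 with a mean of at least 5 FPKM, 5 with no moderation of the variance, 13 with the GC and length correction and 1 to 14 with 1 library left out, and 1 rose, beside 2 with no filter, 0 with no moderation and 0 to 1 with 1 library left out. LAMA5 turned from -0.06 to 0.070 with the GC and length correction and with the block and that correction together, and ran from -0.27 to 0.072 with 1 library left out (0.072 without OE replicate 2 and 0.023 without OE replicate 3). Over all genes 1399 passed, beside 834 with no moderation, 3506 with the GC and length correction, and 300 to 3512 with 1 library left out. The collagen assembly list (6 called) had 3 with a mean of at least 5 FPKM, with median-ratio scaling and with no moderation, 13 with the GC and length correction and 1 to 16 with 1 library left out. The basement membrane partners (10 called) had 4 with no moderation and 1 to 13 with 1 library left out. The receptors (3 called) had 5 with no filter, 0 with no moderation, 6 with the GC and length correction and 0 to 5 with 1 library left out. The causes were not tested.

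The replicate numbers were not treated as pairs: deviations of same-numbered libraries correlated at 0.0734, 0.00653 and 0.0572. With the replicate block 923 genes passed and 7 members fell (COL5A2 was lost) with 1 rising; with the block and the GC and length correction 2729 genes, and 12 of the assembly list, passed.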
